A study of Microtus ochrogaster with 2 samples.

Results

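In the prairie vole (Microtus ochrogaster), H3K4me1 peaks of the retrosplenial cortex formed 772 clusters of close neighbours, which are described here. The clusters were chosen by the measured positions of the listed peaks. Peaks on the same sequence were joined where the next start lay at most 12.5 kb beyond the previous end, and a cluster was kept when it held 5 or more peaks and lay on a chromosome or linkage group. The joining made 15577 groups on these 28 sequences, of which the 772 clusters were 4.96%. Behind the peaks stood 1 library precipitated with an H3K4me1 antibody and 1 input library without antibody, both from males aged 30 to 40 days. No genotype or treatment is given, and the series names 8 males without saying how they were spread over the libraries. Neither library had a replicate. The peak positions themselves chose the clusters, so their sizes, pileups and folds are a description, and no test of them was made. The tissue was taken in bulk, so fewer cells of a type with the mark and less mark per cell cannot be told apart.

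H3K4me1 is histone H3 with a single methyl group on lysine 4, placed mainly by the KMT2C and KMT2D methyltransferases at enhancers, the distal elements that raise transcription from a promoter. The mark is found at active enhancers and at primed ones, and it usually flanks the promoters of active genes, where trimethylation of the same residue takes its place. Stretches where many marked elements crowd together are known in many tissues for lying at genes that set the identity of the cell. The retrosplenial cortex is a midline cortical area known for its part in spatial memory, and its cells are excitatory and inhibitory neurons, glia and vessel cells.

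The clusters held 6145 of the 27164 peaks on chromosomes and linkage groups, or 22.6% (95% Wilson interval 22.1 to 23.1%). They held 3.97 Mb of the 14.6 Mb under those peaks, or 27.1%. Single peaks made up 10542 groups, pairs 2776, and there were 1023 groups of 3 and 464 of 4 peaks. Of the clusters, 247 held exactly 5 peaks and 143 held 6, while 161 held 10 or more, 21 held 20 or more and 4 held 30 or more. The number of groups fell with each added peak from 1 to 11 peaks, with no gap at the threshold. The 464 groups of 4 peaks, just outside it, had a median span of 15578 bp and 2116 bp under peaks, with a median highest pileup of 27 fragments. The 247 clusters of 5, just inside, had 19389 bp, 2823 bp and 28 fragments.

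**Figure D1:**
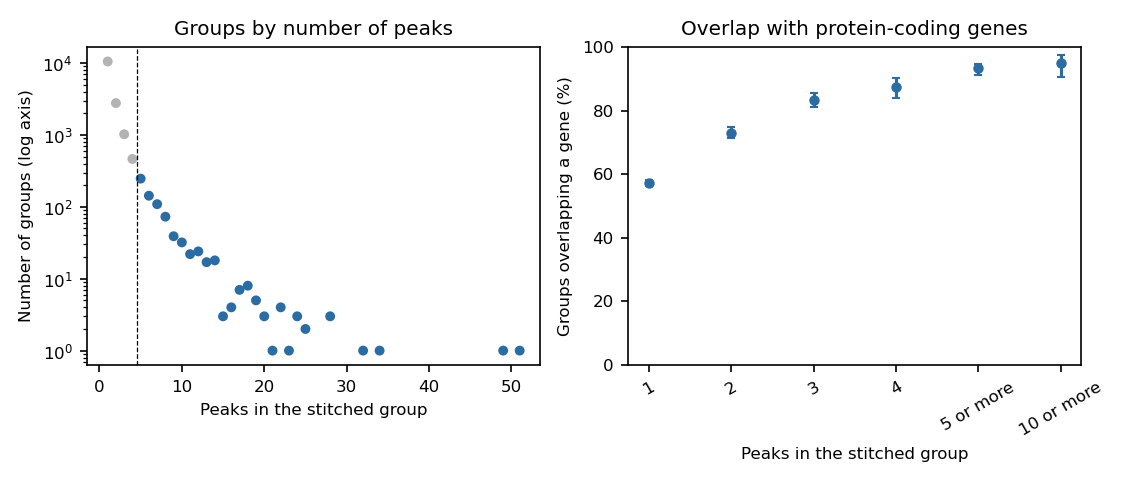
Left, number of stitched groups (log axis) against the peaks in each, grey for 1 to 4 peaks and blue for the 772 clusters of 5 or more. Right, percent of groups that overlap a protein-coding gene, with 95% Wilson intervals, which rose from 57.3% of single peaks to 93.3% of clusters of 5 or more.

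Clusters spanned a median of 26880 bp from first start to last end (quartiles 19078 and 36853 bp, range 4679 to 187934 bp). Peaks lay under a median of 4016 bp of that span (quartiles 2958 and 5872 bp). The share of the span under peaks had a median of 15.7%, with quartiles of 12 and 21.8%. At the median cluster most of the span therefore lay between peaks. Bases under peaks were spread over many clusters, since the 208 with most bases (26.9%) held 50% of all cluster bases and the 10 largest held 6.85%. Among those 10 were the clusters at Tcf4, LOC101984150, Zmynd8, App, Khdrbs3, Gfod1, Jmjd1c, Hivep2 and Scaper. The other 762 clusters had 5 to 34 peaks, a median of 3999 bp under peaks and at most 18838 bp.

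**Figure D2:**
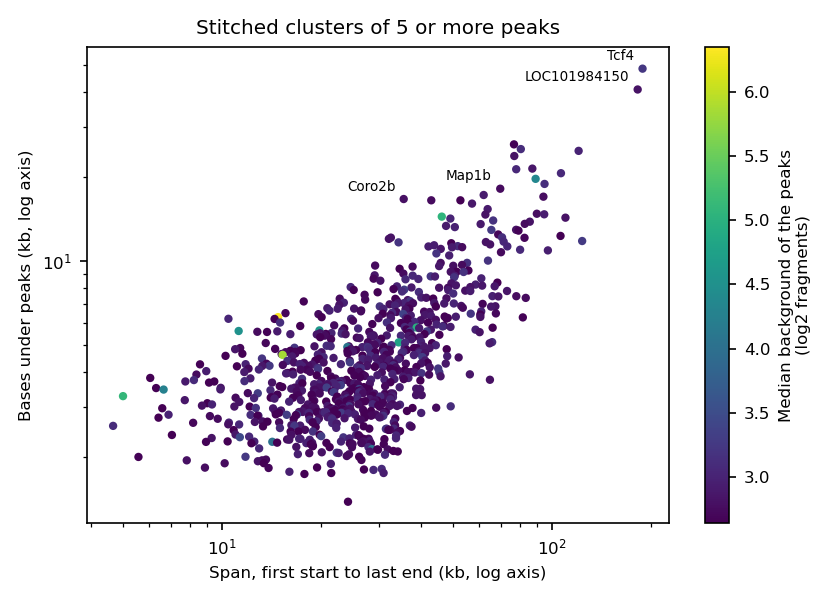
Bases under peaks against span for the 772 clusters (both in kb on log axes), 1 point per cluster, coloured by the median background of its peaks on a log2 scale. The clusters at Tcf4 and LOC101984150 stand at the upper right, Coro2b has many bases for its span of 35519 bp, and a few clusters of high background appear in green and yellow.

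Inside the clusters, 5373 gaps separated neighbouring peaks, with a median of 2580 bp and quartiles of 862 and 5890 bp. Gaps of up to 1 kb were 28.1% of these, and gaps over 10 kb, close to the joining limit, were 6.91%. At least 1 gap over 10 kb was present in 290 clusters (37.6%), while in 98 clusters each gap was 5 kb or less. The nearest peak outside a cluster lay a median of 19864 bp away, and for 505 clusters (65.4%) it lay within 25 kb. A longer joining distance would extend those clusters.

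The summit pileup is the number of ChIP fragments over the highest point of a peak, and the fold enrichment is the authors' ratio of that pileup to the background set by the caller from the input. Within a cluster the median pileup was 23 fragments at the median cluster (quartiles 22 and 25), and the highest pileup was 30 (quartiles 27 and 33). The median fold was 2.90 and the highest fold 3.64 at the median cluster. The tallest peak was also the widest in 283 clusters (36.7%). It was the first or last peak in 214 clusters (27.7%), where first and last peaks were 25.1% of all cluster peaks. The widest peak had a median of 1141 bp and held 27.2% of the bases of its cluster.

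Peaks in the clusters were wider than single peaks and slightly taller. Their median width was 497 bp against 397 bp for the 10542 single peaks, and 15.5% against 4.63% were 1 kb or wider. Median pileup was 24 against 21 fragments, and median fold 2.90 against 2.78. Background rose as well, from a median of 6.32 fragments at single peaks to 7.25 in clusters. The caller's lowest background of 6.23 fragments applied to 44.7% of single peaks, 21.6% of cluster peaks and 11.2% of the 564 peaks in clusters of 20 or more. In those 564 peaks the median width was 569 bp, the median pileup 25 and the median fold 2.86. The fold was 4 or more at 4.96% of them, at 4.26% of all cluster peaks and at 2.06% of single peaks. The part of the input background in the formation of clusters was not tested. These are values of the contrast that chose the clusters and carry no test.

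At least 1 peak had a background over 5 times the lowest, above 31.2 fragments, in 6 clusters, and the median background was above that limit in 5 of them. The highest pileup of any cluster, 299 fragments, was on chromosome 2 (67531203 to 67545993), where 7 peaks of 86 to 299 fragments had a median background of 81.5 and a median fold of 2.01. No protein-coding gene overlapped it. A cluster on chromosome 21 (41292845 to 41327136) reached 283 fragments, at a peak with a background of 186 and a fold of 1.52. Its median background was 27.5 and its median fold 1.91. The clusters at LOC101985376 on chromosome 2 and at Tert on chromosome 19 reached 250 and 228 fragments. At those tallest peaks the backgrounds were 143 and 139 and the folds 1.74 and 1.63. The median backgrounds of the 2 clusters were 31.9 and 33.1. LOC101985376 lay between peaks of its cluster, with no peak base in the gene. At LOC101998094 on chromosome 5 the tallest peak had 157 fragments over a background of 80.7, at 1.93-fold, and the median background was 34.2. Without the 6, the highest pileup of any cluster was 71 fragments. Among the 10 largest clusters, that at Scaper had a median background of 20.5, below the limit, a median fold of 2.20 and no peak over 2.81-fold. In the rest of the 10 largest the median background was at most 9.37.

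Clusters lay on 26 of the 28 sequences. Linkage group 8 had the highest share of its peaks in clusters, 35.6% of 531, in 23 clusters. Chromosomes 16, 18 and 7 followed with 31.2%, 30.9% and 30.7%, and chromosome 7 carried the most clusters, 73. At the low end linkage group 10 had 8.59% of 198 peaks in a single cluster, at Cttnbp2. Linkage group 12, with 42 peaks, and the X chromosome, with 62, had no cluster. Peaks were also sparser there, with 7.86 and 1.08 peaks per Mb against 11.5 to 21.9 on the other sequences.

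The question of which genes the clusters lie over was asked of 771 clusters, since 1 lay on chromosome 6 below 20 Mb, where gene positions could not be matched. A protein-coding gene overlapped 719 of these by at least 1 bp, or 93.3% (91.3 to 94.8%). Across groups of all sizes the share was 64.5%. It was 57.3% for single peaks, 73.1% for pairs and 87.5% for groups of 4. Span grew along with it, from a median of 398 bp for single peaks to 26885 bp for clusters, and a longer region meets a gene more often. Counted by peak midpoint, which does not depend on span, 87.5% of 6140 cluster peaks (86.7 to 88.3%) and 65.6% of 20882 other peaks (64.9 to 66.2%) lay in a gene body. These intervals cover counting error only, and neighbouring peaks are not independent.

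Most clusters belonged to a single gene. Exactly 1 gene overlapped 652 clusters (84.6%), at least 2 genes overlapped 67 (8.69%) and none overlapped 52 (6.74%). In 543 clusters (70.4%) the whole span lay inside the body of a single gene. The gene with most cluster bases, called the lead gene here even where no peak base lay in it, was 1 of 573 different genes over the 719 clusters. For 25 clusters it was a gene that the annotation lists only by an ID. Clusters with no gene, 1 gene and several genes were alike in size, with medians of 3776, 4050 and 3843 bp under peaks.

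Of 13975 placed protein-coding genes, 659 overlapped a cluster, or 4.72% (4.38 to 5.08%). A base of a cluster peak lay in 646 genes, since a span can also meet a gene between peaks. The overlap depended on gene length. It was 1.24% of genes up to 10 kb, 2.30% from 10 to 30 kb, 5.52% from 30 to 100 kb, 18.6% from 100 to 300 kb and 20.9% of longer genes. Over all genes longer than 100 kb the share was 19.1%. Genes with a cluster had a median length of 97084 bp, and all placed genes 18034 bp.

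Several long genes carried more than 1 cluster, with 106 genes overlapping at least 2 and 28 at least 3. Celf2, an RNA-binding regulator of splicing, and Opcml, a cell adhesion molecule of the IgLON family, had 6 each, with 46 and 42 cluster peaks. Kalrn, a guanine nucleotide exchange factor of dendritic spines, had 5 clusters with 59 peaks over 40021 bp. Its paralogue Trio had 4 with 33 peaks over 21159 bp. Myt1l, a transcription factor that keeps neuronal identity, Rbfox3, the splicing factor known as the NeuN antigen, the adhesion molecule gene Cadm1 and the transcription factor gene Csrnp3 also had 4 each. In these 8 genes the highest pileup was 30 to 37 fragments. These genes were singled out after their cluster counts were seen.

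Behind the 10 largest came 20 clusters, at ranks 11 to 30 by bases under peaks, with 13339 to 18838 bp each in 15 to 34 peaks. Of these, 18 overlapped exactly 1 gene, and 14 lay whole inside it. Apart from the cluster at Tert, the highest pileup was 32 to 39 fragments, the median fold 2.70 to 3.32 and the median background 6.26 to 9.05 fragments. Their spans ranged from 35519 to 109767 bp, so they differed more in extent than in height.

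The lead genes of these clusters are ordered here by role, and the grouping was made after the ranks were seen. The first 4 have roles in transcription, and 1 of these, Ahdc1, is in the list of chromatin regulators used below. Zeb2, a zinc finger repressor needed in the development of cortical neurons and glia, lay under the cluster at rank 11, on chromosome 4 (59123886 to 59218753). Its 34 peaks covered 18838 bp, with 22, 27 and 36 fragments as lowest, median and highest pileup, and 97.8% of the bases lay in the gene. At Cxxc5, a CXXC zinc finger gene, 17 peaks covered 16465 bp on chromosome 18 (24363339 to 24406389), but only 67.5% of the bases lay in the gene. The cluster at Ahdc1, an AT-hook DNA-binding protein gene, also reached beyond it, with 74.7% inside. Med13l encodes a subunit of the Mediator kinase module, and its 18 peaks over 13567 bp all lay in the gene.

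A further 7 are known to act on the cytoskeleton, of which Map1b, Dpysl2, Sptbn1 and Cttnbp2 are in the list of cytoskeleton and axon genes used below and Coro2b, Phactr1 and Mark2 are not. Map1b, a microtubule-associated protein of growing axons, had 23 peaks over 18112 bp on chromosome 19 (804470 to 874121), with pileups of 17 to 32 and a median of 23. Dpysl2, also called CRMP2, a tubulin-binding protein of axon growth, had 20 peaks over 17199 bp on chromosome 17 (11530881 to 11592935). Its tallest peak had 38 fragments and 5.35-fold enrichment over a background of 6.30, the highest fold among these 20 clusters. Coro2b, an actin-binding coronin, was the most compact of them, with 15 peaks under 46.8% of a span of 35519 bp. Sptbn1, a beta spectrin of the membrane skeleton, had 18 peaks over 16024 bp in the larger of its clusters. Cttnbp2 is a cortactin-binding protein of dendritic spines, Phactr1 binds actin and protein phosphatase 1, and Mark2 is a kinase that acts on microtubule-associated proteins. Their clusters had 13948, 13810 and 13339 bp under peaks. The cluster at Mark2 also overlapped Rcor2, and 12041 bp of its peaks lay in Mark2.

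The other 9 had mixed roles. Trim9 and Nedd4l, both ubiquitin ligase genes, had 25 peaks each, over 15317 and 14744 bp. Anks1b, a protein of the postsynaptic density, had 24 peaks over 14674 bp and Gramd1b, a cholesterol transport protein, had 15 over 14644 bp. Ankh, a transporter in pyrophosphate release, had the longest span of the 20, 109767 bp, with 13.0% of it under peaks. Bcl2l1, which encodes the survival protein Bcl-xL, had 16 peaks over 14169 bp, and Ppp1r16b, a regulatory subunit of protein phosphatase 1, had 18 over 13541 bp, with a highest fold of 4.88. Fam53b had 22 peaks over 16963 bp. The cluster at Tert stood apart, with pileups of 38 to 228, a median background of 33.1 and a median fold of 2.02. It also overlapped Clptm1l, and 5773 of its 14399 bp under peaks lay in Tert.

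**Figure D3:**
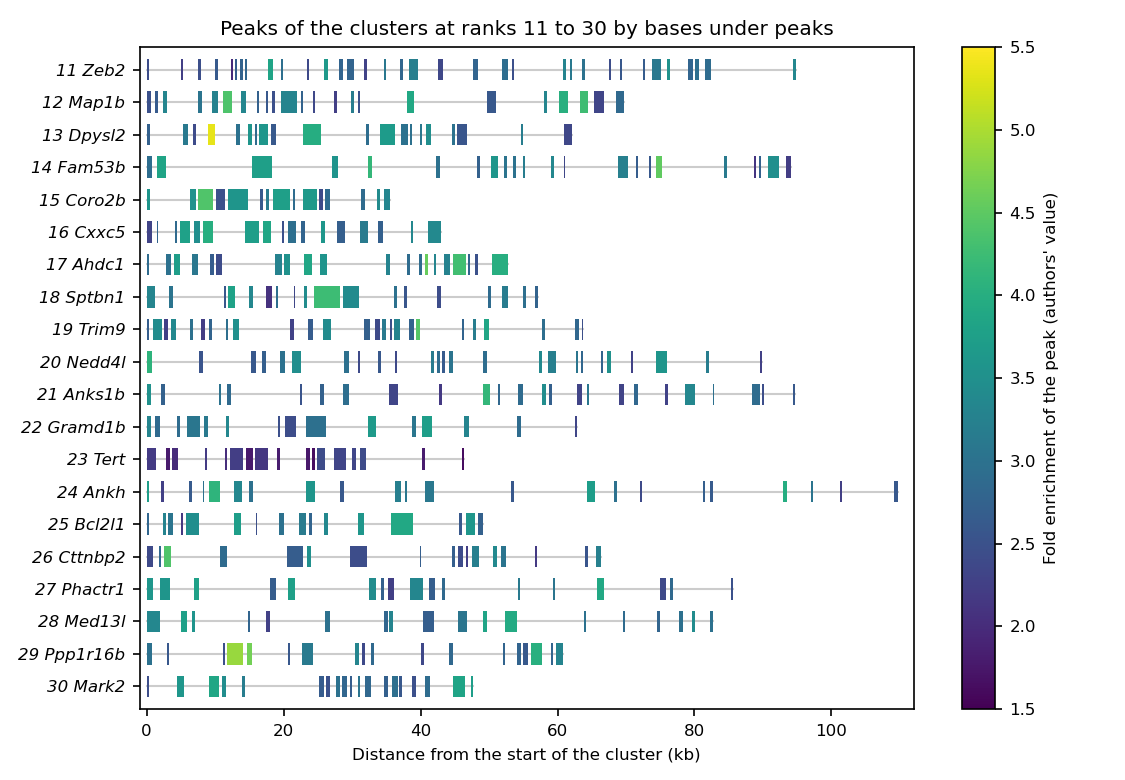
Peaks of the 20 clusters at ranks 11 to 30, 1 row per cluster with its rank and lead gene, drawn to scale against distance from the start of the cluster in kb and coloured by the authors' fold enrichment. Coro2b and Cxxc5 are densely filled, Ankh is sparse over 109767 bp, and the peaks at Tert are all of low fold.

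The clusters with the highest share of their span under peaks were short. At Camk2a, the alpha subunit of the calcium and calmodulin-dependent kinase of excitatory synapses, 5 peaks filled 55.7% of 6316 bp on chromosome 18 (46760964 to 46767279). Their pileups were 21, 22, 18, 30 and 23 fragments, and gaps of 345 to 1036 bp lay between them. At Trim2, a ubiquitin ligase of neurons, 5 peaks filled 63.1% of 6062 bp, with pileups of 26, 22, 29, 18 and 22. At Cpeb3, which binds messenger RNA and regulates its translation, 5 peaks filled 55.1% of 4679 bp, the shortest cluster of all, with pileups of 26, 27, 22, 27 and 21. Dnajb12, a co-chaperone of the endoplasmic reticulum, had 7 peaks with 36, 20, 29, 40, 31, 51 and 28 fragments over 59.4% of 10460 bp. The Trim2, Camk2a and Cpeb3 clusters lay whole inside their genes, while 59.4% of the Dnajb12 cluster bases lay in the gene. The cluster at LOC101998094 filled 65.7% of 5014 bp, the highest share, and 17.6% of its peak bases lay in the gene. Of its 5 peaks, however, 4 had a fold of 1.93 to 2.06 over backgrounds of 32.7 to 80.7.

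Among the longest spans beyond the 10 largest was Qki, an RNA-binding protein of myelinating glia and other cells, on linkage group 9 (7504959 to 7628286). Its 22 peaks spread over 123328 bp and filled 9.55% of it, with pileups of 22 to 33 and a median fold of 2.57. Of these bases 68.4% lay in the gene and the rest outside it.

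Of the 52 clusters over no protein-coding gene, 10 lay within 10 kb of one and 16 lay more than 100 kb away, with a median distance of 37742 bp. The largest was on chromosome 7 (1000211 to 1078008), nearest to Bod1, with 19 peaks over 12919 bp and a highest pileup of 45 fragments at 4.71-fold. The next, on chromosome 6 (80998081 to 81049861), had 16 peaks over 11298 bp and lay 2595 bp from Cd46, a complement regulator. A cluster on chromosome 15 (25493743 to 25531560) had 14 peaks over 8861 bp and lay 47148 bp from Ppara, a nuclear receptor of lipid metabolism. Clusters nearest to Spink1 and Lrrc74a had 8187 and 8115 bp. A noncoding gene or pseudogene of the annotation overlapped 6 of the 52.

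The next question was which roles the genes under clusters had. For 17 lists of genes by role or cell type, the members overlapping a cluster were counted beside the 4.72% of all placed genes and, for members over 100 kb, beside the 19.1% of all placed genes of that length. Each list had a median of 0 cluster bases per gene, since fewer than 50% of its members overlapped a cluster. No set test was made, and each share is a description. Any list members on the X chromosome, where no cluster lay, count as not overlapping. The lists were chosen with earlier results of these data known. Some hold genes of the 10 largest clusters, such as Tcf4 and App, so their shares are not independent of these data.

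Of the cortical transcription factors, 10 of 29 overlapped a cluster (34.5%), and 8 of the 16 over 100 kb did (50%). Tcf4, a basic helix-loop-helix factor, held 59937 bp of cluster peaks in 2 clusters. Hivep2, a large zinc finger factor, held 27366 bp, Myt1l 27041 bp and Mef2c, an activity-dependent factor of cortical neurons, 25130 bp. Bcl11b and Cux1 overlapped none. Of the chromatin regulators, 14 of 44 overlapped a cluster (31.8%), and 9 of 22 over 100 kb (40.9%). The chromatin reader Zmynd8 held 21905 bp, Ahdc1 16966 bp and the JmjC-domain gene Jmjd1c 15130 bp. The remodelling subunits Arid1a and Arid2 had none.

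Of the RNA-binding and splicing regulators, 10 of 28 overlapped a cluster (35.7%), and 9 of 17 over 100 kb (52.9%). Celf2 held 27520 bp, Khdrbs3, a STAR family splicing regulator, 27060 bp, Rbfox3 18211 bp and Mbnl2, a muscleblind splicing factor, 9960 bp. Celf3 and Celf4 had none. Of the cytoskeleton and axon genes, 14 of 34 overlapped a cluster (41.2%), the highest share of any list, and 12 of 23 over 100 kb (52.2%). App, the amyloid precursor gene, held 32467 bp, Sptbn1 26085 bp, Map1b 18112 bp and Dpysl2 17199 bp, while Actn1 and Ank1 had none.

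Of the kinases and phosphatases, 10 of 26 overlapped a cluster (38.5%), and 9 of 15 over 100 kb (60%). Ppp3ca, a catalytic subunit of calcineurin, held 19411 bp, Ntrk2, the receptor for BDNF, 16392 bp, the Src family kinase gene Fyn 14963 bp and Prkce, a protein kinase C, 13307 bp. Camk1d and Camkk1 had none. Of the synaptic scaffold and adhesion genes, 8 of 27 overlapped a cluster (29.6%), and 7 of 16 over 100 kb (43.8%). Dlgap4, a postsynaptic scaffold, held 11519 bp, Dlg2 9592 bp, the synapsin gene Syn3 4854 bp and Bsn, of the presynaptic active zone, 4760 bp. The 4854 bp in Syn3 all lay in Timp3 as well, a metalloproteinase inhibitor gene that shares this stretch, so they cannot be assigned to either gene. Dlg1 and Dlg3 had none.

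Genes for membrane signalling were nearer to the share of all long genes. Of the glutamate and GABA receptor genes, 5 of 26 overlapped a cluster (19.2%), and 5 of 17 over 100 kb (29.4%). Gabbr2, a subunit of the GABA-B receptor, held 17619 bp, the NMDA receptor subunit gene Grin2a 5844 bp, the AMPA receptor subunit gene Gria2 5144 bp and the metabotropic receptor gene Grm3 2389 bp. Gabbr1 and Gabra2 had none. Of the voltage-gated channel genes, 6 of 23 overlapped a cluster (26.1%), and 4 of 17 over 100 kb (23.5%). The calcium channel subunit gene Cacnb2 held 6746 bp and the potassium channel gene Kcnh1 held 6574 bp. Cacna1b and Cacna1d had none. Of the cAMP signalling genes, 3 of 22 overlapped a cluster (13.6%), and 3 of 15 over 100 kb (20%). They were the exchange factor Rapgef2 with 18139 bp, the phosphodiesterase Pde4b with 7288 bp and the adenylyl cyclase Adcy9 with 2461 bp, while Adcy2 and Adcy3 had none.

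Activity-regulated genes, induced when neurons fire, had no cluster at any of their 20 placed members, Arc and Btg2 among them. They are short, with a median length of 5152 bp, and of all genes up to 10 kb 1.24% overlapped a cluster. A count of 0 in 20 genes allows a share of up to 15%, taken as 3 divided by the number of genes. The upper Wilson limit was 16.1%. Inhibitory neuron genes, with a median length of 10372 bp, had none at 18 of 18, among them Calb2 and Cck, which allows a share of up to 16.7%. Erbb4, Sox6 and the other long members of that list, 4 over 100 kb in all, also had none.

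Of the astrocyte genes, 2 of 8 overlapped a cluster, the bicarbonate cotransporter Slc4a4 with 6438 bp and the glutamate transporter Slc1a3 with 1954 bp, while Acsbg1 and Aldoc had none. Of the oligodendrocyte lineage genes, 1 of 13 did, the galactosyltransferase gene Ugt8 with 2125 bp, while Bcas1 and Cspg4 had none. Microglia genes (0 of 11, with C1qa and C1qb) and endothelial and pericyte genes (0 of 8, with Cdh5 and Emcn) had no cluster, which allows shares of up to 27.3 and 37.5%. Among tissues not sampled, hepatocyte genes had 0 of 14, with Ahsg and Alb, which allows up to 21.4%. Striated muscle genes had 1 of 10, Cacna1s, where 123 bp of a cluster peak reached into the gene, and Acta1 and Actn3 had none. Median gene length was 6899 bp in the microglia list, 73648 bp in the endothelial and pericyte list and 10952 bp in the hepatocyte list. Of all genes up to 10 kb 1.24% overlapped a cluster, from 10 to 30 kb 2.30% and from 30 to 100 kb 5.52%. The counts of 0 therefore do not set these lists apart from genes of their length. The cell-type lists hold 8 to 18 placed genes each and cannot separate small differences.

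**Figure D4:**
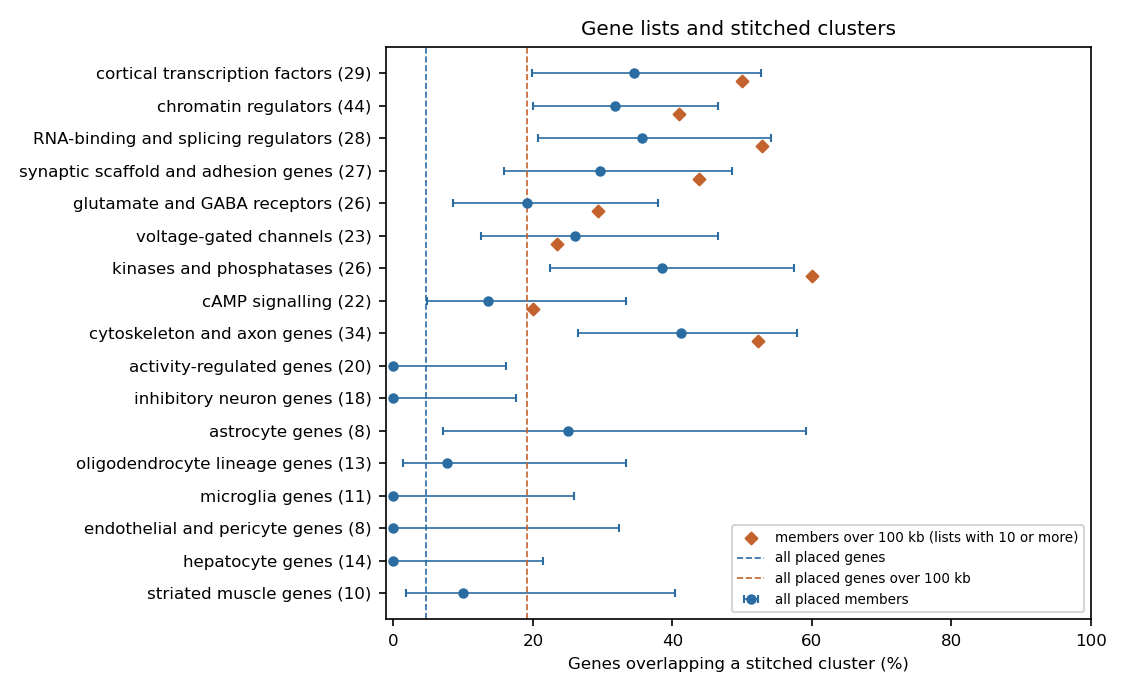
Percent of genes that overlap a stitched cluster in each list, with the number of placed members in brackets. Blue points show all placed members with 95% Wilson intervals, orange diamonds the members over 100 kb, and dashed lines the shares of all placed genes (4.72%) and of all placed genes over 100 kb (19.1%).

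The clusters also held 316 ends of protein-coding genes, in 181 clusters, where the pattern at gene ends could be read inside marked stretches. Over the spans of all 772 clusters, not only of these 181, 16.5% of bases lay under a peak. At the gene end itself a peak covered 11.4% of ends (Wilson interval 8.34 to 15.4%). At 250 bp into the gene it covered 7.99% (5.47 to 11.5%), at 500 bp 8.04% and at 750 bp 8.77%, the lowest values within 5 kb on either side. At 1500 bp into the gene coverage was 16.6% (12.8 to 21.2%), and at 1250 bp outside it 17.3% (13.4 to 22.1%). Further into the gene coverage was low again, with 10.5% at 2250 bp (7.47 to 14.6%) and 9.82% at 3750 bp (6.84 to 13.9%). Those intervals overlap the interval at 250 bp, so the values near the gene end are not set apart from those positions. The gene table carries no strand, so starts and stops of transcription are pooled in these values.

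**Figure D5:**
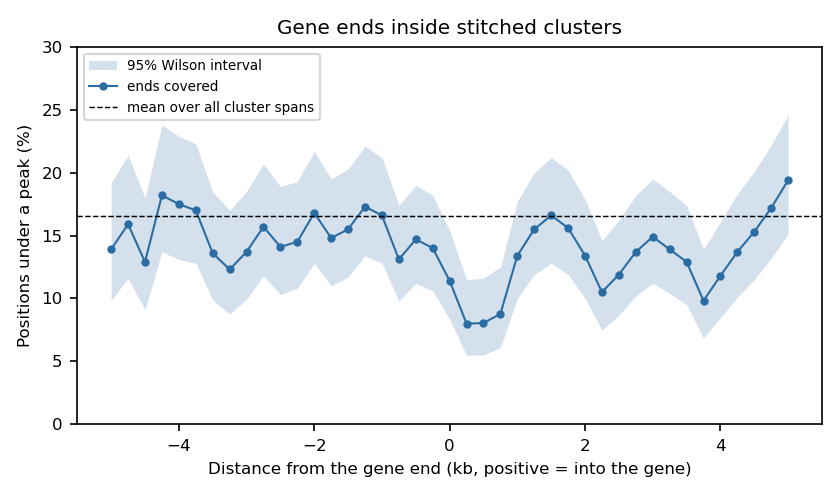
Percent of positions under a peak against distance from a gene end in kb, positive into the gene, for gene ends inside stitched clusters. The line shows the share, the band its 95% Wilson interval and the dashed line the mean of 16.5% over all cluster spans. Coverage was lowest 250 to 750 bp into the gene, but the interval at 250 bp overlaps those at 2250 and 3750 bp.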

How the data were processed

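Per the file headers, MACS 2.0.10.20131216 compared 1 ChIP with 1 input library in its BAMPE mode, with peaks kept at a q cutoff of 0.05. After the caller's filter the libraries held 37430265 and 47554684 fragments. Header paths name a Stampy alignment, and per the submitters' processing notes MACS2 2.0.10, SAMtools 0.1.19 and the aligner BWA 0.7.12 were used. As deposited, a pileup is the signal at a summit, in ChIP fragments. The deposited fold is a ratio of pileup to background, each with 1 added, and the background was computed back from it. Of the authors' −log10 values, only that of q was used, to filter peaks.

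No source used here names the genome build. Genes came from a RefSeq table of assembly MicOch1.0, without strand. To check that they match, all peaks were shifted 14 times by 20 to 200 kb. In the band 1 to 2.5 kb from gene ends 2472 peaks lay before and 1199 to 1371 after a shift. Of the 26 sequences with clusters, 25 had their highest count without a shift. Linkage group 8 had 62, and 63 with 1 shift. The X chromosome and linkage group 12, which had no cluster, also lacked their highest count without a shift. Their genes were not left out of gene counts. Genes and clusters on chromosome 6 below 20 Mb were left out of gene counts. Gene coordinates are not given and no sequence was used.

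Python 3.11.15 and pandas 2.3.3 were used, and joining and overlap were checked on simulated peaks. List members were matched by symbol or synonym. Intervals are 95% Wilson intervals and cover counting error only. Named clusters were those at ranks 11 to 30 by bases under peaks, the 10 largest, and the 5 highest by span, share under peaks, pileup, genes and bases without a gene. In each list the 4 genes with most cluster bases and the first 2 in the alphabet with no cluster were named, apart from a few that are not reported here. The clusters and lists were chosen with earlier results of these data known. Alternatives were other joining distances, numbers of peaks, peak subsets, sequences and rules of overlap.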

Additional observations from a re-analysis of the deposited data

Results flagged for a closer look

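Unlocalised and unplaced sequences, which entered no comparison above, also carried clusters of 5 or more peaks, 228 in all. Of these 198 lay on unplaced and 30 on unlocalised sequences. They had a median span of 23418 bp, a median of 3954 bp under peaks and a median fold of 2.90 at the median cluster. The largest had 25 peaks covering 26951 bp. In 20 of the 228 (8.77%) the median background was over 5 times the lowest, against 5 of the 772 clusters on chromosomes and linkage groups. No gene was assigned to them.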

How the results depend on the processing

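No paired analysis was possible because each group held 1 library, and for the same reason no library could be left out. The number of clusters, 772, was 337 with a joining distance of 5 kb, 252 and 234 with the 50% of peaks of higher q rank or fold, and 1236 with at least 4 peaks. It stayed within 1.5 times (525 to 1125) with 25 kb, at least 6 peaks, all sequences, and without high-background peaks. In the order 5 kb, 25 kb, higher q rank, higher fold, at least 4 and at least 6 peaks, the share of peaks in clusters was 8.34, 37.9, 13.2, 11.7, 29.5 and 18.1%, and 21.7% over all sequences. The share of genes was 1.90, 9.22, 1.55, 1.47, 7.33 and 3.26%. Median span was 13142 bp with 5 kb, 49383 bp with 25 kb, 20954 bp with at least 4 and 32144 bp with at least 6 peaks. The share of clusters over a gene was 91.1% with at least 4 peaks and 91.3 to 94.2% in the other alternatives. A higher limit on peaks keeps fewer clusters by construction. With 5 kb, some clusters were split, since 337 clusters overlapped 304 of the 772. For the other changes the cause was not tested.

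Against all genes, lists kept their side in 146 of 153 runs. The exceptions were astrocyte genes (0% with 5 kb), striated muscle genes (0% with 5 kb or by midpoint) and oligodendrocyte lineage genes (0% with 5 kb, higher q rank or higher fold, 7.69% with 25 kb, below all genes there). Of 49 named clusters, 138 of 211 values of bases stayed within 1.5 times, and in 34 further runs no cluster of 5 peaks was left, as without high-background peaks at Tert. The effect of depth was not tested. Median pileup was 23 fragments at the median cluster and the lowest median of any cluster was 18, and a gap between clusters does not show that the mark is absent.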

Other observations

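A few clusters stretched over several short genes. The one with most genes, on chromosome 7 (2178927 to 2216421), overlapped 6 genes, Stub1, Jmjd8, Wdr24, Fbxl16, Metrn and Fam173a, with 8 peaks over 5251 bp and pileups of 21 to 27 fragments. Stub1 encodes a ubiquitin ligase that works with chaperones, and Metrn a secreted factor of glia and neurons. Clusters over 4 genes each lay on chromosome 21, at Isg20l2, Rrnad1, Mrpl24 and Hdgf, with 2229 bp under peaks, on chromosome 7, at Dph1, Ovca2, Hic1 and Smg6, with 3109 bp, and on chromosome 8, at Yif1a, Cnih2, Rab1b and Klc2, with 2514 bp. A cluster on linkage group 5 reached over Phf24, Dnajb5 and LOC113457738, with 9 peaks over 6570 bp. In these 5 clusters peaks filled 7.89 to 15.4% of the span, at or below the median of 15.7% of all clusters. Their largest gaps were 9556 to 12037 bp, against the joining limit of 12.5 kb. With a joining distance of 5 kb, no cluster of 5 peaks was left at any of them. The clusters at Isg20l2, Dph1 and Rab1b were also lost when only the peaks of higher q rank or of higher fold were used.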
